A study of Mus musculus with 11 samples.

Results

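Sorted cells of a knock-in Tbr2 reporter mouse were compared with sorted cells of a Nestin reporter mouse, gene by gene, on 6 of the 11 arrays of a study of the adult dentate gyrus. The members are the arrays titled kiTbr2GFP (3 arrays) and NesGFP (3 arrays), and the comparison runs over 16527 genes. kiTbr2GFP mice carry a knock-in of green fluorescent protein (GFP) at Eomes, which codes for the transcription factor Tbr2. NesGFP mice carry a GFP transgene named for Nestin (Nes), a structural filament protein of neural stem cells. All animals were at postnatal day 35, none was given a treatment that the labels record, and the tissue was the microdissected dentate gyrus from dorsal and ventral hippocampus. Fluorescent cells were sorted by flow cytometry, and their RNA was amplified and read on Affymetrix Mouse Gene ST arrays, where the signals of several probes are summed up as 1 probe set. The other arrays came from a Tbr2 GFP transgenic line, tgTbr2GFP (3 arrays), used below where it tests whether a difference is shared by both Tbr2 reporters, and from a Pomc GFP line (2 arrays). The study's stated question was which genes may take part in building the stem cell niche of the dentate gyrus.

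The labels limit these groups as models. They do not say whether the knock-in was carried on 1 or both copies of Eomes, which regulatory sequence drives GFP in the Nestin line, or what strain the lines were on. Nor do they say whether the 3 arrays per line stand for 3 animals, and the p-values then cover only the array-to-array spread, perhaps a technical one.

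In the dentate gyrus new granule neurons are made after birth. Radial stem cells that contain Gfap and Nestin divide to give intermediate progenitors marked by Tbr2, which divide a limited number of times and become neuroblasts with doublecortin, then immature and finally mature granule neurons. Tbr2 is best known as the marker and regulator of the intermediate progenitor step. Nestin reporters are widely used to label the stem cells, and Nestin itself is also made by other cells of the brain.

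Values are log2 RMA values, so a difference of 1 is a 2-fold difference in hybridisation signal. A gene passed the test at a limma adjusted p under 0.05, with the Benjamini-Hochberg adjustment over all 16527 genes. Differences are kiTbr2GFP minus NesGFP with their standard error (SE), and "higher" and "lower" below mean higher or lower in kiTbr2GFP and past this test. Array medians lay between 7.0 and 7.15 over all 11 arrays. Arrays of kiTbr2GFP correlated with each other at 0.977 to 0.985 across genes, those of NesGFP at 0.939 to 0.959, and kiTbr2GFP with NesGFP arrays at 0.766 to 0.804. Genes on 1 array are not independent replicates. The number of arrays limits the precision. The deposited values come with no call of signal above background, so no fold is given where a group had an array on which the gene lay below the 25th percentile (5.90 to 6.20 on these 6 arrays). Olfactory receptor genes averaged 6.50 to 6.65 on kiTbr2GFP arrays and 6.21 to 6.45 on NesGFP arrays. Smc4 and Mki67 in NesGFP, and Etv5, Cdh5 and Mag in kiTbr2GFP, came near these levels on at least 1 array. Their folds below have no reliable upper limit.

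The labels were first checked against the 2 genes that mark the cells. Eomes (probe set 10589994) stood at 10.07, 9.93 and 9.93 on the kiTbr2GFP arrays and at 8.52, 8.65 and 9.23 on the NesGFP arrays. Gfap (probe set 10391798), a filament protein of astrocytes and of radial stem cells, stood at 6.98, 7.29 and 7.19 in kiTbr2GFP and at 9.82, 9.93 and 9.92 in NesGFP. The groups did not overlap for either gene. Eomes was higher in kiTbr2GFP, whose label names its protein. Gfap was higher in NesGFP, whose label names Nestin and not Gfap. Eomes was 2.26-fold higher in kiTbr2GFP (difference 1.18, SE 0.20, limma adjusted p = 0.000553), and Gfap was 6.63-fold lower (difference -2.73, SE 0.16, limma adjusted p = 3e-07). Nes itself stood at 6.25, 5.97 and 6.22 in kiTbr2GFP and at 7.63, 7.51 and 6.91 in NesGFP, a difference of -1.20 (SE 0.18, limma adjusted p = 0.000226). Eomes was nonetheless above the array median on every NesGFP array. Whether the GFP cassette shortens the Eomes transcript read by these probes is not given in the sources used here.

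**Figure D1:**
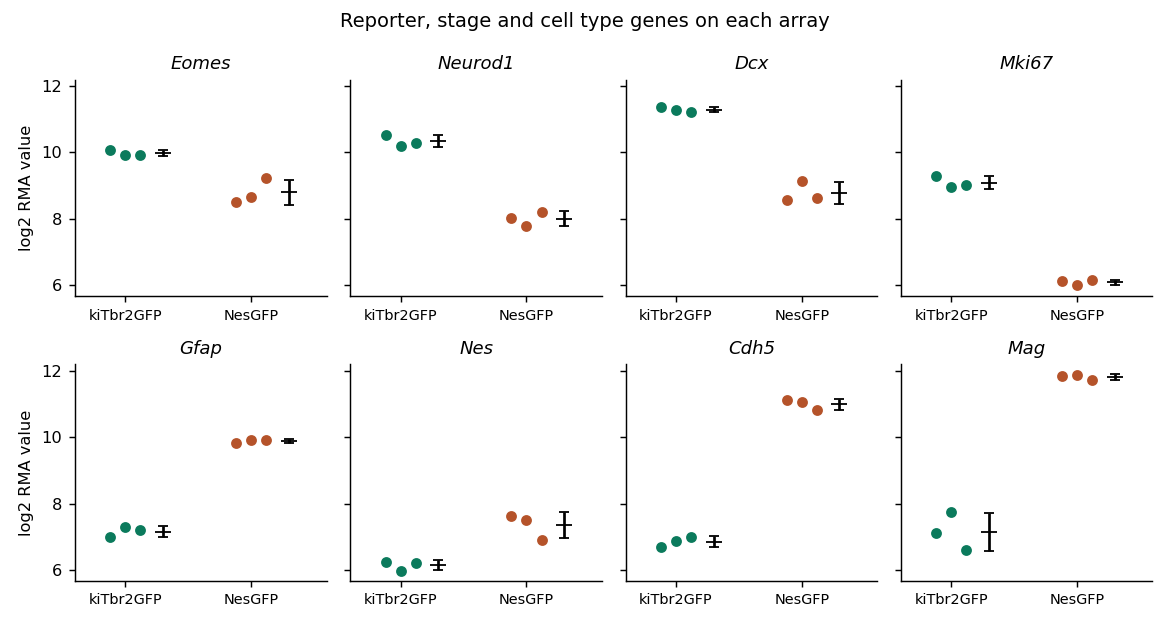
Log2 RMA value (vertical axis) of 8 genes on each of the 3 kiTbr2GFP and 3 NesGFP arrays (points), with the mean and SD of the group (bar to the right of the points). Eomes, Neurod1, Dcx and Mki67 sit higher on every kiTbr2GFP array, and Gfap, Nes, Cdh5 and Mag sit higher on every NesGFP array.

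The 2 populations differed widely. Of 16527 genes 7472 passed the test (45.2%), 3002 higher (18.2%) and 4470 lower (27.0%). Over 2-fold, 1017 genes were higher (6.15%) and 1851 lower (11.2%), over 4-fold 242 were higher (1.46%) and 401 lower (2.43%), and over 8-fold 27 were higher (0.163%) and 87 lower (0.526%). The 3 kiTbr2GFP arrays lay above all 3 NesGFP arrays for 3642 genes (22.0%) and below them for 4907 genes (29.7%). The median difference over all genes was -0.01. These shares are the background for every list of genes below, since a list in which about 1 gene in 5 is higher does not stand out. The gene lists are described by counts and medians, and no test was made of a list as a whole.

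Transcription factors and other regulators of the Tbr2 lineage were mostly higher. Of 22 measured, 13 were higher (59.1%), 2 were lower and 7 did not pass, with a median difference of 0.90. Neurod4, a neurogenic helix-loop-helix factor, stood at 8.88, 8.45 and 8.46 in kiTbr2GFP and at 4.53, 5.96 and 5.42 in NesGFP. Its difference was 3.29 (SE 0.29, limma adjusted p = 3.9e-06), with NesGFP values partly below the 25th percentile. Zbtb20, a zinc finger repressor of the hippocampal neuron lineage, stood at 12.27, 12.35 and 12.29 against 9.21, 9.71 and 9.60. Neurod1, which newborn granule neurons need to survive and mature, stood at 10.54, 10.19 and 10.29 against 8.01, 7.77 and 8.22. Prox1, the homeobox factor that fixes granule neuron identity, stood at 11.34, 11.25 and 11.09 against 9.63, 9.45 and 9.58. None of these 4 genes had overlapping groups, and the differences of the last 3 were 2.80 (SE 0.13), 2.34 (SE 0.14) and 1.67 (SE 0.11). Another Zbtb20 probe set, of mean level 11.24 against 11.49, differed by 1.71. The 2 lower genes were Gadd45g, a growth arrest gene (difference -0.90, SE 0.21), and Btg2, an antiproliferative gene of neurogenic divisions (difference -0.51, SE 0.14). The Btg2 call was lost when arrays were scaled by cyclic loess (limma adjusted p = 0.0583).

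Genes of immature neurons were higher as well. Of 25 measured, 14 were higher (56.0%) and 1 was lower, with a median difference of 0.40. Dcx, the microtubule-binding protein doublecortin of neuroblasts, stood at 11.36, 11.29 and 11.23 in kiTbr2GFP and at 8.57, 9.15 and 8.62 in NesGFP. It was 5.71-fold higher (difference 2.51, SE 0.15, limma adjusted p = 2.58e-07). Elavl4, a neuronal RNA-binding protein, stood at 10.10, 9.91 and 9.80 against 7.27, 6.90 and 7.0, and was 7.37-fold higher. Sema3c, a secreted guidance cue, differed by 2.08 (SE 0.17), and Elavl2 by 2.03 (SE 0.18). The members were not alike. Tubb3, a neuronal tubulin, stood at 12.19, 12.28 and 12.42 against 12.13, 12.07 and 12.05 and did not pass (difference 0.21, SE 0.10, limma adjusted p = 0.111), though it passed under cyclic loess scaling (limma adjusted p = 0.0371) and with a robust prior (limma adjusted p = 0.0243). Ncam1, a cell adhesion molecule, was lower by a difference of -0.57 (SE 0.11).

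Genes known from Cajal-Retzius cells, the Reelin-secreting early neurons of the hippocampal marginal zone, many of which also make Tbr2, were mostly higher. Of 15 measured, 9 were higher (60.0%) and 1 was lower, with a median difference of 0.59. The 9 fell to 6 without kiTbr2GFP replicate 2 and to 7 without kiTbr2GFP replicate 3 or NesGFP replicate 1. Reln, the secreted migration cue, stood at 10.15, 10.28 and 9.99 in kiTbr2GFP and at 7.21, 7.87 and 8.17 in NesGFP, 5.25-fold higher (difference 2.39, SE 0.27, limma adjusted p = 2.61e-05). Ndnf, a secreted factor, differed by 1.86 (SE 0.33), and Tbr1, a T-box factor of postmitotic glutamatergic neurons, by 1.12 (SE 0.15). The transcription factors of the list were split. Ebf3 was higher by 0.96 (SE 0.16), and Ebf1 was lower by a difference of -1.09 (SE 0.19). The mean level of the list per array was 8.06 to 8.09 in kiTbr2GFP and 7.39 to 7.62 in NesGFP. The part that such cells had in the differences was not tested.

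Genes of mitosis had the highest median of the 17 stage and cell type lists. Of 39 mitotic genes 30 were higher (76.9%) and 0 were lower, against 18.2% and 27.0% of all genes, and the median difference was 1.5. The mean level of the list per array was 8.49 to 8.77 in kiTbr2GFP and 6.98 to 7.15 in NesGFP. Knl1, the kinetochore scaffold, stood at 9.57, 9.38 and 9.12 in kiTbr2GFP and at 5.14, 5.58 and 4.90 in NesGFP. It was higher (difference 4.15, SE 0.21, limma adjusted p = 1.2e-07), and its NesGFP values lay below the 25th percentile of each array. Smc4, a condensin subunit, stood at 10.77, 10.51 and 10.62 against 6.36, 7.27 and 6.90, and was 13.8-fold higher. Kif11, the motor that separates spindle poles, stood at 9.93, 9.66 and 9.45 against 6.51, 6.29 and 5.69 (difference 3.52, SE 0.21). Mki67, the proliferation antigen Ki-67, stood at 9.30, 8.95 and 9.03 against 6.13, 6.0 and 6.15, and was 8.02-fold higher. Each of these 4 genes separated the groups by more than 2 log2 units between the closest arrays. Cenpe, a kinetochore motor, differed by 3.58 (SE 0.18), Kif20b, a kinesin of cytokinesis, by 3.02 (SE 0.17), and Top2a, the topoisomerase of chromosome condensation, by 2.61 (SE 0.20). Among the 9 mitotic genes that did not pass were the kinases Cdk1 (difference 0.18, SE 0.27, limma adjusted p = 0.622) and Plk1 (difference -0.03, SE 0.16, limma adjusted p = 0.907), both named after their values were seen. Cdk1 stood at 8.17, 7.89 and 8.25 in kiTbr2GFP and at 8.51, 8.14 and 7.11 in NesGFP, with overlapping groups.

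The promoters of mitotic genes share elements that can be read directly. The cell cycle genes homology region (CHR) is the element through which the DREAM and MuvB complexes hold mitotic genes down in resting cells and switch them on late in the cell cycle, and the CCAAT box is bound by NF-Y. The RefSeq promoter table (build GRCm38.p6, from 250 bases before to 50 after a gene's start) held at least 1 window for 13013 of the 16527 genes and for 34 of the 39 mitotic genes. The CHR was searched as TTTGAA or TTCGAA and the CCAAT box as CCAAT, each on both strands, and these motifs can share only an end letter. A CHR was present for 26 of 34 mitotic genes (76.5%) and for 16.8% of all genes with a window. A CCAAT box was present for 22 of 34 (64.7%) and for 41.6% of all genes. Both were present for 20 of 34 (58.8%) and for 6.80% of all genes. A CHR was found for 19 of 26 mitotic genes that were higher (73.1%) and for 7 of 8 that did not pass the test (87.5%). These are matches of letters in a fixed window, not measured binding. The 4 windows below are shown because they belong to mitotic genes whose difference is given above. They are written 5′ to 3′ on the strand of the gene, with each CHR and CCAAT match on either strand in capitals. Smc4 has no entry in the table.
Knl1, chr2:119046869-119047168, plus strand: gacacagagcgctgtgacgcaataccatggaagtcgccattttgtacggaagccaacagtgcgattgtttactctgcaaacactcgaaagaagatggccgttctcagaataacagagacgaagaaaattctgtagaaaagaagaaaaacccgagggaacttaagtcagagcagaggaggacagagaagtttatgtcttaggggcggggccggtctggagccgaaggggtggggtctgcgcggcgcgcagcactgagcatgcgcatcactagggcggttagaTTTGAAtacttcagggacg
Cenpe, chr3:135212313-135212612, plus strand: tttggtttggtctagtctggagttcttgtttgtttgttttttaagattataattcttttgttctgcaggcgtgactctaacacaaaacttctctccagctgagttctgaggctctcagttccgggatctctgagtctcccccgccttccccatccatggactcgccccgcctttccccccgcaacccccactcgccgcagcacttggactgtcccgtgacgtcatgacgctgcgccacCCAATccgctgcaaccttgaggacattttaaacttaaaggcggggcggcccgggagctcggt
Kif11, chr19:37376132-37376431, plus strand: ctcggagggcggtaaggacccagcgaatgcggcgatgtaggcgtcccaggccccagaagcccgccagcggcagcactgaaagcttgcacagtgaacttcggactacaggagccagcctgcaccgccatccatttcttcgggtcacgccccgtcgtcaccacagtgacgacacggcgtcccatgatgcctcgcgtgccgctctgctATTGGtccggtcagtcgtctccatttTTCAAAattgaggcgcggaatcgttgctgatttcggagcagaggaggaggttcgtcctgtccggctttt
Mki67, chr7:135716330-135716629, minus strand: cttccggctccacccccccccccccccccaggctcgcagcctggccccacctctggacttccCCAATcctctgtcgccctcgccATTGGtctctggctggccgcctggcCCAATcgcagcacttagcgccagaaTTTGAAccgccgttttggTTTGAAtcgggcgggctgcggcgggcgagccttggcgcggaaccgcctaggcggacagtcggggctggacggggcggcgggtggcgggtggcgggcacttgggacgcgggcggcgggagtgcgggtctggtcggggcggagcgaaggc
Knl1 had 1 CHR and no CCAAT box in this window, Cenpe 1 CCAAT box and no CHR, Kif11 1 of each, and Mki67 2 CHRs and 3 CCAAT boxes.

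Genes of DNA replication did not shift as mitotic genes did. Of 45 measured, 9 were higher (20%), 3 were lower and 33 did not pass, with a median difference of 0.19. Under cyclic loess scaling 17 were higher. Pola1, the catalytic subunit of DNA polymerase alpha, stood at 8.71, 8.66 and 8.54 in kiTbr2GFP and at 6.89, 6.57 and 6.12 in NesGFP (difference 2.11, SE 0.19). The origin recognition genes Orc3 and Orc4 were higher by 1.63 (SE 0.22) and 1.43 (SE 0.23), and the clamp loader gene Rfc1 by 1.26 (SE 0.25). Pcna, the sliding clamp, averaged 11.30 ± 0.09 in kiTbr2GFP against 11.07 ± 0.12 in NesGFP (both SD, n = 3), with groups that did not overlap, and did not pass (difference 0.23, SE 0.11, limma adjusted p = 0.107), though it passed under cyclic loess scaling (limma adjusted p = 0.0158). The 3 lower members, 5 without NesGFP replicate 3, were Gins4 (-0.90, SE 0.22), Pold2 (-0.88) and Rpa1 (-0.56). A CHR was found for 7 of 38 replication genes (18.4%), near the share of all genes.

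Of 25 genes of the G1 phase, 6 were higher (24.0%) and 4 were lower. Ccne2, a cyclin of S phase entry, differed by 1.83 (SE 0.27), Cdk6, a G1 kinase, by 1.45 (SE 0.29), Rb1, the retinoblastoma repressor, by 1.35 (SE 0.27), and its relative Rbl1 by 1.13 (SE 0.12). Ccnd1, a D-type cyclin of G1, stood at 7.55, 7.82 and 7.95 in kiTbr2GFP and at 9.28, 9.36 and 9.54 in NesGFP. It was lower with no overlap between groups (difference -1.62, SE 0.12, limma adjusted p = 1.49e-06).

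**Figure D2:**
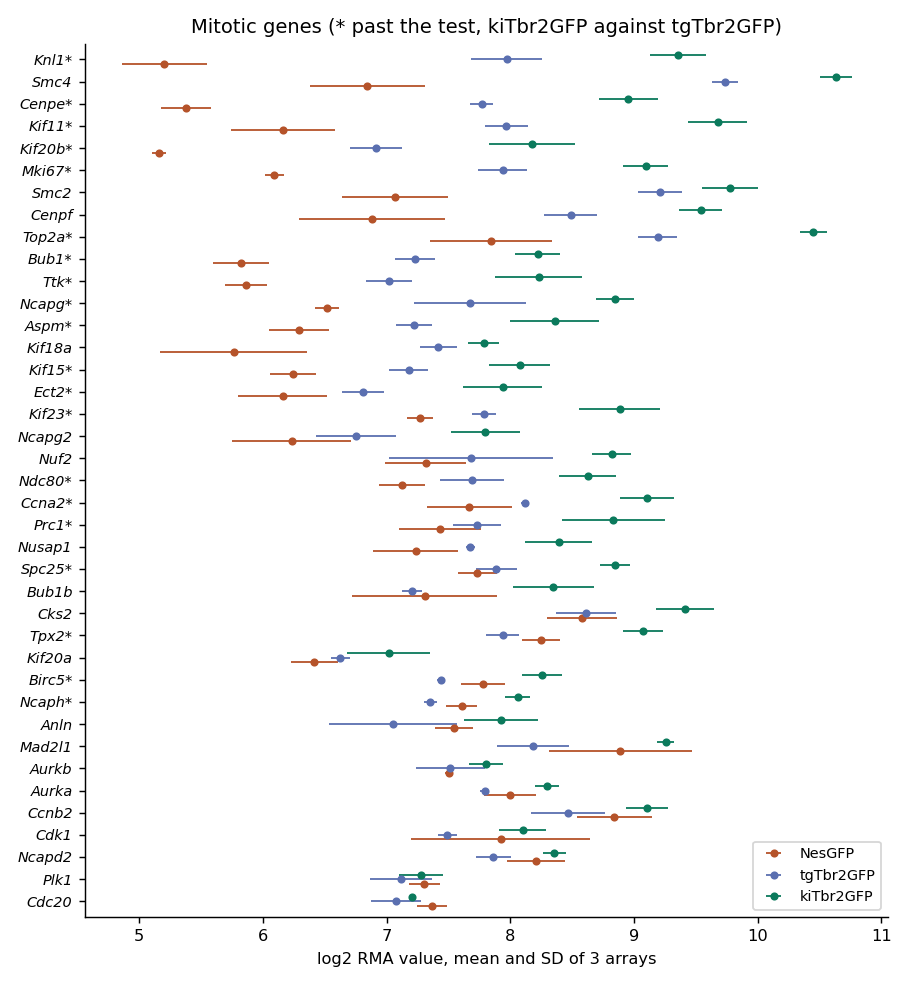
Mean and SD over 3 arrays (points and bars, log2 RMA value on the horizontal axis) of the 39 mitotic genes in kiTbr2GFP, tgTbr2GFP and NesGFP, ordered by the difference between kiTbr2GFP and NesGFP. Asterisks mark the 20 genes past the test between kiTbr2GFP and tgTbr2GFP, and for 27 genes the means run in the order kiTbr2GFP, tgTbr2GFP, NesGFP.

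The same mitotic genes were set against the other Tbr2 reporter. The difference between kiTbr2GFP and tgTbr2GFP equals the difference between their comparisons with NesGFP, so its test asks where the knock-in result departs from that of the transgenic line. Of all genes 185 passed it (1.12%), 72 higher in kiTbr2GFP (0.436%) and 113 lower (0.684%). The count of 185 genes was 77 without tgTbr2GFP replicate 1 and 80 without replicate 3, and 68, 85 and 69 without kiTbr2GFP replicate 1, 2 or 3. Of the 39 mitotic genes 20 were higher in kiTbr2GFP than in tgTbr2GFP and 0 were lower, with a median difference of 0.99, and all 39 had the higher mean in kiTbr2GFP. Mki67 stood at 7.71, 8.02 and 8.08 in tgTbr2GFP, between the other 2 lines, and Kif11 at 7.77, 8.02 and 8.11. Their differences from kiTbr2GFP were 1.16 (SE 0.13, limma adjusted p = 0.00462) and 1.71 (SE 0.21, limma adjusted p = 0.00622). The count of 20 rested on the arrays used. It was 9, 10 and 16 without kiTbr2GFP replicate 1, 2 or 3, and 9, 16 and 11 without tgTbr2GFP replicate 1, 2 or 3, while the median difference stayed between 0.90 and 1.04.

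**Figure D3:**
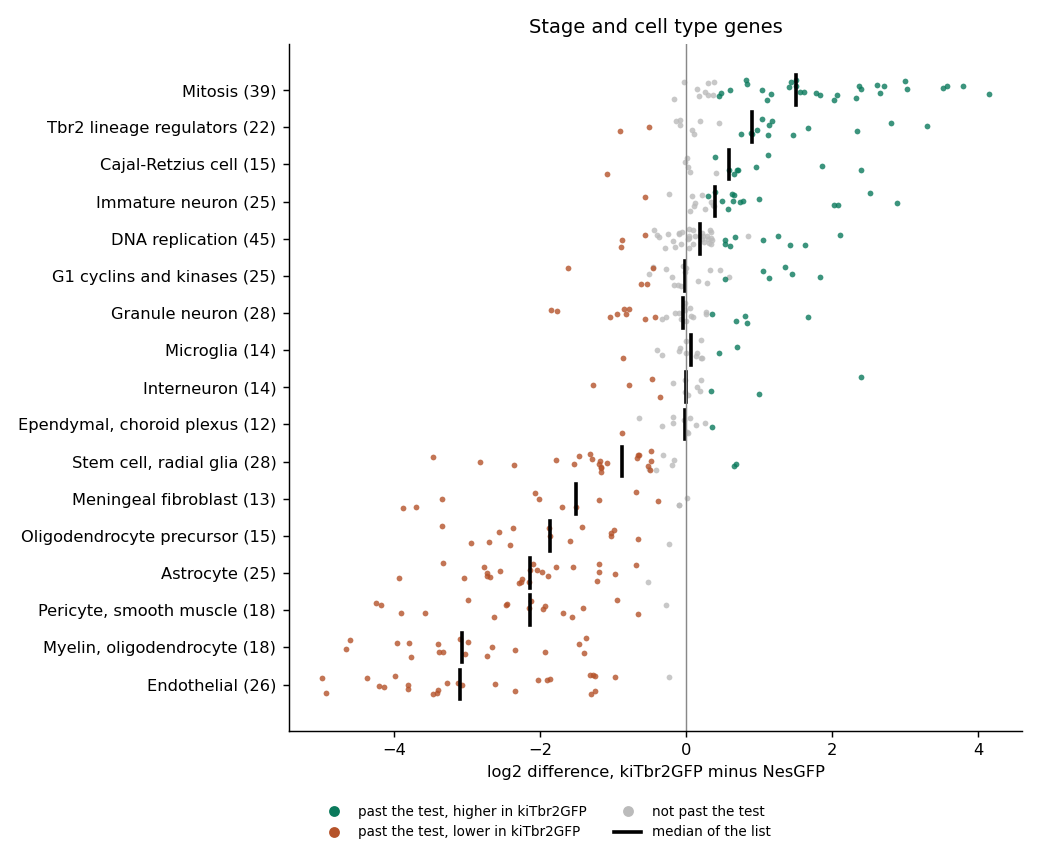
Log2 difference, kiTbr2GFP minus NesGFP (horizontal axis), of each measured member of 17 gene lists (points, jittered vertically), with the median of each list (black bar) and the number of members in brackets. The medians run from 1.5 for mitosis to -3.10 for endothelial genes, and all 18 myelin genes were lower.

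Genes of stem cells and radial glia were mostly lower in kiTbr2GFP. Of 28 measured, 21 were lower (75%) and 2 were higher, with a median difference of -0.89. Etv5, a target of growth factor signalling, stood at 6.19, 6.71 and 6.51 in kiTbr2GFP and at 9.79, 9.76 and 10.27 in NesGFP. It was 11.1-fold lower (difference -3.47, SE 0.38, limma adjusted p = 2.37e-05). Another Etv5 probe set, of mean level 7.15 against 7.91, differed by -2.24. Id3, an inhibitor of neurogenic factors, differed by -2.82 (SE 0.16), Prom1, the membrane protein CD133, by -2.35 (SE 0.24), and Slc1a3, the glial glutamate transporter GLAST, by -1.78 (SE 0.11). Sox2, the stem cell factor, stood at 10.23, 10.25 and 10.03 against 10.40, 10.82 and 10.53. The groups did not overlap, but the difference of -0.41 (SE 0.18) did not pass (limma adjusted p = 0.0878), though it passed when each array was centred on its median (limma adjusted p = 0.0448). The members that were higher were Msi2, an RNA-binding protein (0.68, SE 0.14), and Pax6, a homeobox factor of neurogenic progenitors (0.65, SE 0.14).

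Signalling pathways of the niche were followed from ligand to target. In the Notch pathway, which keeps stem cells undivided through Hes and Hey repressors, 7 of 14 receptors, cofactors and targets were lower (50%) and 2 were higher, a count that fell to 1 without any 1 of the kiTbr2GFP arrays or without NesGFP replicate 3. The target Hey1 stood at 7.22, 7.62 and 7.45 in kiTbr2GFP and at 9.93, 10.14 and 8.86 in NesGFP (difference -2.22, SE 0.26), and the receptor Notch2 at 6.94, 7.23 and 7.08 against 8.97, 8.95 and 8.78 (difference -1.82, SE 0.13). Rbpj, the DNA-binding partner of Notch, was higher by 0.82 (SE 0.21). Hes5, a main Notch target in neural stem cells, stood at 8.54, 8.72 and 8.81 against 8.88 on each NesGFP array and did not pass (difference -0.19, SE 0.10, limma adjusted p = 0.144), though it passed when each array was centred on its median (limma adjusted p = 0.0261). Of 17 ligands and their regulators 4 were lower (23.5%) and 1 was higher. Lfng, which modifies Notch receptors, differed by -1.18 (SE 0.22), and Mib1, the ligase that activates ligands, by 0.62 (SE 0.10).

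In the Wnt pathway 17 of 39 genes were lower (43.6%) and 4 were higher, or 2 when genes also had to exceed the 50th percentile. The receptor Fzd3 was higher by 1.52 (SE 0.15) and the inhibitory scaffold Apc by 1.45 (SE 0.16). The target and feedback inhibitor Nkd1 stood at 7.36, 7.6 and 7.73 in kiTbr2GFP and at 10.37, 10.32 and 10.38 in NesGFP (difference -2.80, SE 0.14), and the receptor Fzd4 differed by -1.83 (SE 0.17). In the BMP pathway 12 of 28 genes were lower (42.9%) and 5 were higher, or 3 without kiTbr2GFP replicate 2. The ligand Bmp4 stood at 6.21, 6.39 and 6.53 against 8.76, 9.03 and 9.08 (difference -2.58, SE 0.14). The activin receptor Acvr2a stood at 10.32, 10.44 and 10.39 against 8.30, 8.25 and 8.22, and was higher by 2.12 (SE 0.10). In the hedgehog pathway 6 of 12 genes were lower (50%), with the feedback inhibitor Hhip at -1.30 (SE 0.20), and the coreceptor Cdon was higher by 1.56 (SE 0.18). Of 30 receptor tyrosine kinases 16 were lower (53.3%), led by the vascular receptors Flt1 (-3.99, SE 0.22) and Kdr (-3.40, SE 0.21), and 1, the insulin receptor Insr, was higher (0.50, SE 0.15). The Insr call was lost without kiTbr2GFP replicate 2 (limma adjusted p = 0.0724) or NesGFP replicate 1 (limma adjusted p = 0.0594). Another Insr probe set differed by -0.04, and the mean of the gene's probe sets did not pass (limma adjusted p = 0.149).

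Markers of glia and blood vessels moved with these differences and were lower in kiTbr2GFP. Astrocyte genes were lower for 24 of 25 (96.0%), with a median difference of -2.13. Gpr37l1, an astrocyte receptor, stood at 7.54, 7.94 and 7.88 in kiTbr2GFP and at 11.70, 11.69 and 11.74 in NesGFP, 15.2-fold lower (difference -3.93, SE 0.21). Clu, a secreted chaperone, differed by -3.33 (SE 0.21), S100b, a calcium-binding protein, by -3.04 (SE 0.21), and Gja1, the gap junction protein connexin 43, by -2.77 (SE 0.17). In bulk arrays fewer cells of a type and less RNA per cell cannot be told apart.

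Vascular genes were lower by more. Of 26 endothelial genes 25 were lower (96.2%) with a median difference of -3.10, and of 18 genes of pericytes and smooth muscle 17 were lower (94.4%) with a median of -2.14. Cdh5, the cadherin of endothelial junctions, stood at 6.69, 6.87 and 7.01 in kiTbr2GFP and at 11.12, 11.05 and 10.80 in NesGFP, 17.6-fold lower (difference -4.14, SE 0.16, limma adjusted p = 5.46e-08). Itm2a, a membrane protein of endothelial cells, stood at 6.31, 6.39 and 6.40 against 11.39, 11.28 and 11.39. It was lower (difference -4.99, SE 0.31), and its kiTbr2GFP values were close to the mean level of olfactory receptor genes on those arrays (6.50 to 6.65), so the difference has no reliable upper limit. The contractile gene Myl9 (-4.25, SE 0.27) and the pericyte gene Vtn (-4.18, SE 0.26) belonged to the 12 largest negative differences, as did Ctla2a, Slco1a4 and Emcn, which mark endothelium. The mean level of the endothelial list per array was 9.44 to 9.66 in NesGFP and 6.69 to 6.84 in kiTbr2GFP, and 4 of its 26 genes lay below the 25th percentile on all 3 kiTbr2GFP arrays.

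Genes of the oligodendrocyte lineage were lower at both its stages. All 18 myelin genes were lower (100%), with a median difference of -3.06, and 14 of 15 precursor genes were lower (93.3%), with a median of -1.87. Mag, a myelin-associated glycoprotein, stood at 7.10, 7.74 and 6.6 in kiTbr2GFP and at 11.84, 11.88 and 11.72 in NesGFP, 25.4-fold lower (difference -4.67, SE 0.47). Opalin, a membrane protein of myelinating cells, stood at 6.12, 6.95 and 6.08 against 11.21, 11.15 and 10.60. Pdgfra, the receptor that marks precursors, stood at 6.98, 7.33 and 7.12 against 10.18, 10.81 and 10.48, 10.1-fold lower. Gpr17, of cells between precursor and myelinating stage, differed by -2.71 (SE 0.15).

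Other cell type lists moved less. Of 14 microglia genes 2 were higher (14.3%) and 1 was lower, each call lost without 1 of the kiTbr2GFP arrays, with mean levels per array of 6.85 to 7.14 in kiTbr2GFP and 6.93 to 7.01 in NesGFP. Of 13 meningeal fibroblast genes 10 were lower (76.9%), with a median of -1.51, but Pdgfra stands in this list too. Of 14 interneuron genes 3 were higher (21.4%) and 4 lower (28.6%), with Pvalb, the calcium buffer of fast-spiking cells, at -1.28 and Reln the highest member, and the 4 fell to 2 without kiTbr2GFP replicate 2 or NesGFP replicate 3. Of 12 ependymal and choroid plexus genes 1 was higher, or 0 without kiTbr2GFP replicate 2 or 3, and 1 was lower, or 3 without NesGFP replicate 3. The part that astrocytes, vascular cells and oligodendrocytes had in the other differences between the lines was not tested.

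Genes of granule neurons went both ways. Of 28 measured, 5 were higher (17.9%) and 9 were lower (32.1%), and the 9 fell to 5 without kiTbr2GFP replicate 3. These shares were near the 18.2% and 27.0% of all genes, so the list did not stand out by count. Prox1, shared with the lineage list, was the highest. Calb1, the calcium buffer calbindin of mature granule neurons, stood at 7.78, 7.28 and 6.83 in kiTbr2GFP and at 9.34, 8.86 and 8.99 in NesGFP (difference -1.77, SE 0.24). Camk2a, the synaptic kinase of mature glutamatergic neurons, stood at 8.16, 8.84 and 8.37 against 10.44, 10.30 and 10.20 (difference -1.86, SE 0.26). Both were lower in kiTbr2GFP with no overlap between groups.

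Subunits of transmitter receptors went both ways. Of 21 glutamate receptor genes 4 were higher (19.0%) and 7 were lower (33.3%), not far from the 18.2% and 27.0% of all genes. The AMPA receptor subunit Gria2, which makes the channel impermeable to calcium, stood at 11.90, 11.90 and 11.91 in kiTbr2GFP and at 9.89, 9.72 and 9.08 in NesGFP (difference 2.34, SE 0.17), and the NMDA receptor subunit of immature neurons Grin2b differed by 1.73 (SE 0.11). Grm3, a metabotropic receptor found on glia, differed by -2.47 (SE 0.26). Of 13 genes of GABA receptors and chloride transport, Gabra2 was higher by 2.21 (SE 0.40) and Gabrb2 by 0.85 (SE 0.25), and Gabrg1 and Gabrb1 were lower at -2.63 (SE 0.30) and -1.59 (SE 0.24). The Gabrb2 call was lost without kiTbr2GFP replicate 2 (limma adjusted p = 0.0682) or NesGFP replicate 1 (limma adjusted p = 0.0626).

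Of 24 synaptic vesicle genes 9 were higher (37.5%) and 10 were lower (41.7%), and the 10 fell to 6 without kiTbr2GFP replicate 1 or without NesGFP replicate 1. Slc17a6, the vesicular glutamate transporter of early glutamatergic neurons, stood at 9.50, 9.14 and 9.02 in kiTbr2GFP and at 6.09, 6.92 and 5.88 in NesGFP (difference 2.92, SE 0.27). Sv2a, a vesicle glycoprotein, differed by -2.12 (SE 0.15). Of 22 sodium and calcium channel genes 13 were higher (59.1%) and 4 were lower. Scn3a, the sodium channel of embryonic and immature neurons, differed by 2.54 (SE 0.26), and Cacna2d1, an auxiliary calcium channel subunit, by 2.40 (SE 0.29). The 4 lower members had small differences, with Cacna1h, a T-type calcium channel, at -0.38, and their count fell to 1 without kiTbr2GFP replicate 1 and to 2 without NesGFP replicate 1 or 2.

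Guidance and migration genes went both ways too. Of 51 axon guidance genes 16 were higher (31.4%) and 13 were lower (25.5%). The netrin receptor Dcc stood at 10.98, 10.93 and 10.99 in kiTbr2GFP and at 7.95, 8.63 and 7.39 in NesGFP, 7.88-fold higher (difference 2.98, SE 0.25, limma adjusted p = 2.61e-06). The secreted semaphorins Sema3c and Sema3a were higher, Sema3a by 1.84 (SE 0.20), and the netrin receptor Unc5d by 1.78 (SE 0.20). Another Unc5d probe set, of mean level 7.18 against 7.36, differed by only 0.43. The membrane-bound semaphorins Sema4d (-2.13, SE 0.14), Sema6a (-1.89) and Sema7a (-1.70) were lower, as was the ephrin ligand Efna1 (-1.77). Another Sema4d probe set, of mean level 8.34 against 8.40, differed by only -0.68. Of 16 genes of Reelin and chemokine guided migration 4 were higher, or 2 without kiTbr2GFP replicate 2, and 9 were lower (56.2%). The chemokine Cxcl14 stood at 6.64, 7.22 and 7.03 against 9.38, 9.45 and 9.43 (difference -2.46, SE 0.21), and Ackr3, the scavenger receptor of Cxcl12, differed by -2.28 (SE 0.11).

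Matrix and adhesion genes of the niche were lower for 19 of 37 (51.4%) and higher for 2. Fibronectin, Fn1, which also stands in the fibroblast list, had the lowest value of the list (-3.70), and Bcan, the perineuronal proteoglycan brevican, followed at -3.42. The integrin Itga4 was the highest at 1.08.

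Metabolic genes were lower as groups. Of 20 genes of sterol synthesis 19 were lower (95.0%) and 0 were higher, with a median difference of -1.30. Msmo1, the sterol methyl oxidase, stood at 7.45, 7.41 and 7.28 in kiTbr2GFP and at 10.89, 10.96 and 10.99 in NesGFP, 11.8-fold lower (difference -3.57, SE 0.31, limma adjusted p = 3.77e-06). Ebp, Nsdhl and Idi1, which act before or after it in the pathway, differed by -1.90, -1.78 and -1.70. Of 20 genes of fatty acid synthesis 14 were lower (70.0%) and 1 was higher, with the desaturases Scd1 at -2.92 (SE 0.39) and Scd2 at -2.88 (SE 0.24) and the elongase Elovl6 at 0.67 (SE 0.13). Of 23 genes of fatty acid oxidation 18 were lower (78.3%) and 0 were higher, with a median of -1.15. Acadl, the long chain dehydrogenase, stood at 7.01, 6.72 and 7.03 against 9.40, 9.38 and 9.48, and Cpt1a, which admits fatty acids to mitochondria, differed by -2.01 (SE 0.13). Of 19 genes of glycolysis 14 were lower (73.7%) and 0 were higher. Slc2a1, the glucose transporter, stood at 8.35, 8.29 and 8.28 against 11.83, 11.65 and 11.67, 10.6-fold lower, but it also marks brain endothelium, and Aldoc, which differed by -2.73 (SE 0.15), also marks astrocytes.

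The CCAAT box was present in all 16 sterol synthesis genes with a promoter window (100%), against 41.6% of all genes, and a CHR in 2 of 16 (12.5%). NF-Y at this box is known to act beside the sterol factor SREBP. The windows of 2 of these genes are shown, from the same RefSeq table (build GRCm38.p6), with each CCAAT match on either strand in capitals. Msmo1 and Ebp, the sterol isomerase, had the largest differences of the list.
Msmo1, chr8:64733529-64733828, minus strand: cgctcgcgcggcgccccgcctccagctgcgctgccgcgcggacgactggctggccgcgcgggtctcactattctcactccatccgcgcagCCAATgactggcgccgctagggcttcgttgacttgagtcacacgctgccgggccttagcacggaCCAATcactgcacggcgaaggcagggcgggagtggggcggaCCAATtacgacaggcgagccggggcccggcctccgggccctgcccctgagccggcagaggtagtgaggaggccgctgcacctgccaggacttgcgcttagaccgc
Ebp, chrX:8193463-8193762, minus strand: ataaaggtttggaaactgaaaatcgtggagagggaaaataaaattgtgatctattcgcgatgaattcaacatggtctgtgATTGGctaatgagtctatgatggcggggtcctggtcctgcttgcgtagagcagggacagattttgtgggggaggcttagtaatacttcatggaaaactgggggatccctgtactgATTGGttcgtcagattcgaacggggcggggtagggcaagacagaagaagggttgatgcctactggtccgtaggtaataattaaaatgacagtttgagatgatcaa
Msmo1 had 3 CCAAT boxes and no CHR in this window, and Ebp had 2 CCAAT boxes and 1 CHR, which is not capitalised here.

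**Figure D4:**
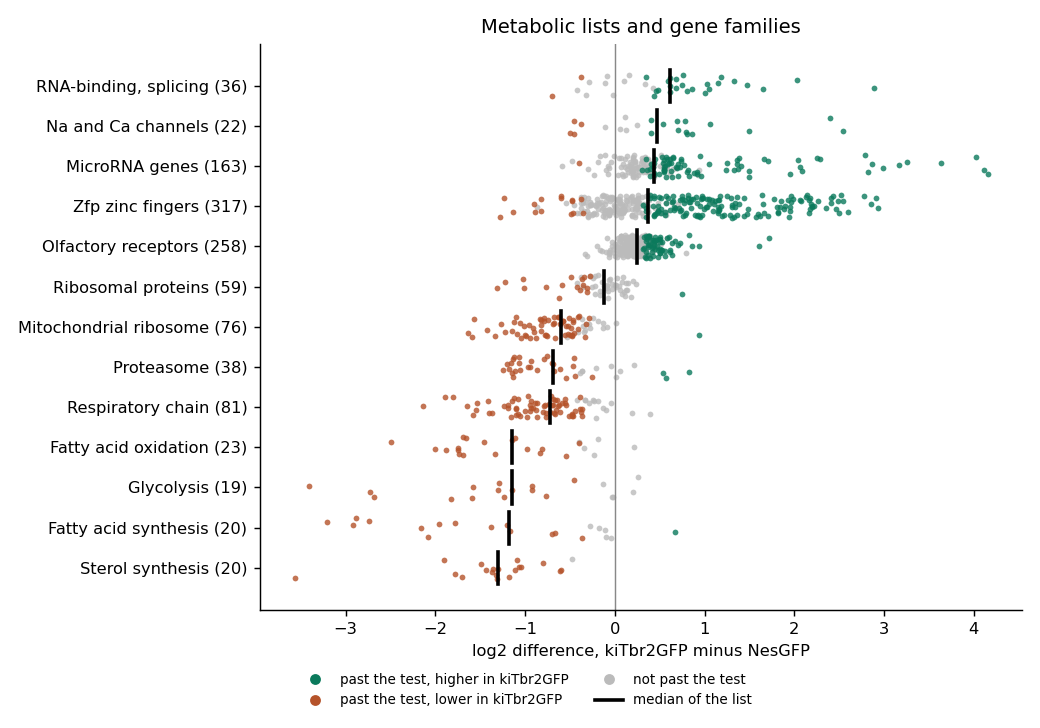
Log2 difference, kiTbr2GFP minus NesGFP (horizontal axis), of each measured member of 13 metabolic lists and gene families (points, jittered vertically), with the median of each list (black bar) and the number of members in brackets. Medians run from 0.61 for RNA-binding and splicing genes to -1.30 for sterol synthesis genes.

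Large housekeeping families were lower too, by smaller amounts. Respiratory chain genes were lower for 68 of 81 (84.0%) and higher for 0, with a median of -0.73. Mitochondrial ribosomal proteins were lower for 59 of 76 (77.6%) and higher for 1, with a median of -0.60. Proteasome genes were lower for 27 of 38 (71.1%) and higher for 3, with a median of -0.69. Cytoplasmic ribosomal proteins were lower for 16 of 59 (27.1%), close to the 27.0% of all genes, and higher for 1. The medians of the first 3 families stayed below 0 under cyclic loess scaling and when each array was centred on its median. The NesGFP arrays had 75th percentiles of 8.23 to 8.35, and the other 8 arrays 8.10 to 8.18, so bright genes as a whole stood higher in NesGFP. The part of this in the family medians was not tested.

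Genes of RNA binding and neuronal splicing were higher for 24 of 36 (66.7%) and lower for 2, with a median of 0.61. The lower count was 1 without kiTbr2GFP replicate 1 or 3 and 4 without NesGFP replicate 3. Beside Elavl4 and Elavl2, Pum2, a translational repressor, differed by 1.65 (SE 0.17) and Fmr1, the fragile X protein gene, by 1.47 (SE 0.15). Ptbp1, the splicing repressor of non-neuronal cells, stood at 8.15, 8.35 and 8.10 in kiTbr2GFP and at 8.83, 8.45 and 8.45 in NesGFP. Its difference of -0.38 (SE 0.13) passed the test (limma adjusted p = 0.035), but not without kiTbr2GFP replicate 1 or 3 or NesGFP replicate 1, nor under cyclic loess scaling (limma adjusted p = 0.128). Another Ptbp1 probe set, of mean level 7.47 against 8.16, differed by -1.33, so the size depends on the probe set.

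Of 26 chromatin genes of the Polycomb and DNA methylation systems 10 were higher (38.5%) and 3 were lower, or 5 without NesGFP replicate 1 or 3. When each array was centred on its median, 8 were higher and 6 were lower. Suz12 and Ezh2, core subunits of Polycomb repressive complex 2, differed by 2.32 (SE 0.22) and 1.56 (SE 0.13), and Tet2 and Tet1, which oxidise methylated cytosine, by 1.68 (SE 0.10) and 1.20 (SE 0.15). Dnmt3a, the methyltransferase, was lower at -1.02 (SE 0.13). Of 28 genes of the BAF chromatin remodellers 7 were higher (25%) and 6 were lower (21.4%), with 11 higher under cyclic loess scaling. Pbrm1, the subunit with many bromodomains, stood at 11.66, 11.41 and 11.55 against 8.28, 7.83 and 9.40, 8.21-fold higher. Other Pbrm1 probe sets, of mean level 8.90 and 8.66 against 10.50, differed by 2.23 and 1.96, less than the 3.04 of this one.

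Zinc finger genes with a Zfp symbol were higher for 149 of 317 (47.0%) and lower for 15 (4.73%), with a median of 0.37. The largest were Zfp711 (2.93), Zfp811 (2.91), Zfp638 (2.85) and Zfp729b (2.78), and many genes of this family are near-identical copies whose signals these probes may share. The lower count rose to 26 when each array was centred on its median. Olfactory receptor genes, which brain cells are not known for, were higher for 60 of 258 (23.3%) and lower for 0, with a median of 0.24 and mean levels per array of 6.50 to 6.65 in kiTbr2GFP and 6.21 to 6.45 in NesGFP. Only 258 of the 1015 on the array passed the filter on low values, and their count ran from 29 to 97 as single arrays were left out. It was 29 without kiTbr2GFP replicate 3, 35 without kiTbr2GFP replicate 2 or NesGFP replicate 2, 36 without NesGFP replicate 1 and 97 without NesGFP replicate 3. At the low end of the scale the 25th percentiles were 6.06 to 6.20 on the kiTbr2GFP arrays and 5.90 to 6.01 on the NesGFP arrays, and the part of this in the olfactory receptor counts was not tested.

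MicroRNA genes were higher for 78 of 163 (47.9%) and lower for 1 (0.613%), with a median of 0.43. Only 163 of 296 passed the filter on low values, and with no filter 98 were higher and 7 were lower. The probes read the hairpin or its primary transcript from amplified RNA, and mature microRNAs were not measured. The 4 largest fitted differences belonged to Mir99a (4.15, SE 0.60), Mir690 (4.12, SE 0.27), Mirlet7c-1 (4.02, SE 0.23) and Mir350 (3.63, SE 0.17). Mir99a stood at 11.46, 11.34 and 10.88 in kiTbr2GFP and at 5.33, 7.20 and 8.68 in NesGFP, the widest spread of the 4. Mirlet7c-1 stood at 8.0, 7.62 and 8.46 against 3.77, 3.96 and 4.29. Mir350 stood at 8.33, 8.32 and 8.08 against 4.20, 4.75 and 4.88. The NesGFP values of Mirlet7c-1 and Mir350 lay below the 25th percentile of each array. Their mature sequences in RefSeq (GRCm38.p6) are shown to let their targeting seeds be compared, with the seed (bases 2 to 8) in capitals.
mmu-miR-99a-5p: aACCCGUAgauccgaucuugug
mmu-let-7c-5p: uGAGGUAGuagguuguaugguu
mmu-miR-690: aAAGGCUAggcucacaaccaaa
mmu-miR-350-5p: aAAGUGCAugcgcuuuggg
mmu-miR-350-3p: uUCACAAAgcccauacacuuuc
The 5 mature sequences hold 5 distinct seeds, so they share none. Mir99a and Mirlet7c-1 lie 656 bases apart on chromosome 16. The noncoding gene Mir99ahg, which is named for this cluster, stood at 11.40, 11.40 and 11.33 in kiTbr2GFP and at 8.99, 7.40 and 8.28 in NesGFP (difference 3.15, SE 0.29), and was named after its value was seen. Mir690 lies within Fgf12 and Mir350 within Cep170.

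Immediate early genes, which cells switch on within minutes of stimulation, were listed together with genes of dissociation stress. Of these 27 genes 15 were lower (55.6%) and 1 was higher, with a median of -0.52. The mean level of the list per array was 7.68 to 7.77 in kiTbr2GFP, 8.02 to 8.30 in tgTbr2GFP and 8.32 to 8.45 in NesGFP. The median was -0.41 for kiTbr2GFP minus tgTbr2GFP and -0.14 for tgTbr2GFP minus NesGFP. The part of cell dissociation in these differences was not tested. The single higher gene, Ier5, lost its call without kiTbr2GFP replicate 2 or 3 or NesGFP replicate 2 or 3. Ier3 stood at 7.29, 6.97 and 6.52 in kiTbr2GFP and at 9.72, 9.42 and 9.43 in NesGFP (difference -2.60, SE 0.20). Dusp6, the phosphatase that damps ERK signalling, differed by -1.68 (SE 0.19), and Fos by -0.91 (SE 0.19). Of 22 interferon response genes 15 were lower (68.2%) and 1 was higher, with Ifitm3 at -4.87 (SE 0.47) and B2m, the light chain of class I antigen presentation, at -2.83. Ifitm3 stood at 6.61, 7.52 and 6.74 in kiTbr2GFP and at 11.85, 11.75 and 11.89 in NesGFP, and it is also a gene of vascular cells.

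The naming rule left out microRNA, small nucleolar and predicted genes and any symbol that begins with Mir. Among its 12 largest positive differences, 7 belonged to none of the mitotic or lineage lists. Cwc22, a splicing factor, stood at 11.44, 11.37 and 11.32 in kiTbr2GFP and at 6.78, 7.83 and 7.49 in NesGFP, 16.1-fold higher. It stood at 9.19, 8.71 and 8.69 in tgTbr2GFP, so that it differed between the Tbr2 lines by 2.51 (SE 0.23, limma adjusted p = 0.00117), the largest positive one among genes past both tests. The array carries 8 probe sets of this gene and 7 of them hold the same values, as near-identical copies would give, so its level and its differences between lines are uncertain. The remaining set, of mean level 8.69 against 9.06, differed between kiTbr2GFP and NesGFP by 2.64, against 4.01 for the set used. The strain of each line is not given in the sources used here, so strain and reporter cannot be told apart for this gene. Thoc2l stood at 10.04, 9.70 and 9.88 against 6.04, 6.68 and 4.93, and Amy1, the amylase gene, at 9.99, 10.11 and 10.03 against 6.85, 7.31 and 5.66. Both have close relatives in the mouse genome, whose signals these probes may share. The others were Qser1 (3.25, SE 0.51), Syne2 (3.11, SE 0.50), a nuclear envelope protein, Hells (3.06, SE 0.17), a chromatin remodeller of dividing cells, and Pbrm1. Other Syne2 probe sets differed by 2.33, 1.48 and 1.32, and another Qser1 probe set by 2.72. Neurod4 was the only lineage factor among the 12.

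Of 4 sex-linked genes tested, 1 passed in the fit of all 11 arrays, though all 4 stood higher on every kiTbr2GFP array than on any NesGFP array. Xist, the inactivating RNA of the X chromosome of females, stood at 10.45, 10.29 and 10.32 in kiTbr2GFP and at 8.28, 8.80 and 8.26 in NesGFP, and did not pass (limma adjusted p = 0.142). The Y-linked gene Kdm5d stood at 9.09, 9.22 and 9.10 against 6.84, 8.08 and 7.58. Both genes lay above the 75th percentile on each kiTbr2GFP array, and the sex of the animals is not given in the sources used here. In tgTbr2GFP Xist stood at 6.40, 11.44 and 11.27 and the Y-linked Eif2s3y at 9.76, 3.75 and 8.24, so these arrays differed from each other in sex-linked genes. Kdm5d passed the test (difference 1.63, SE 0.46, limma adjusted p = 0.0126), but not without NesGFP replicate 1 (limma adjusted p = 0.0521). With only the arrays of the compared groups, which leaves out tgTbr2GFP, Xist passed (limma adjusted p = 0.000105). So did Eif2s3y (limma adjusted p = 0.000867) and the Y-linked Uty (limma adjusted p = 0.00532).

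**Figure D5:**
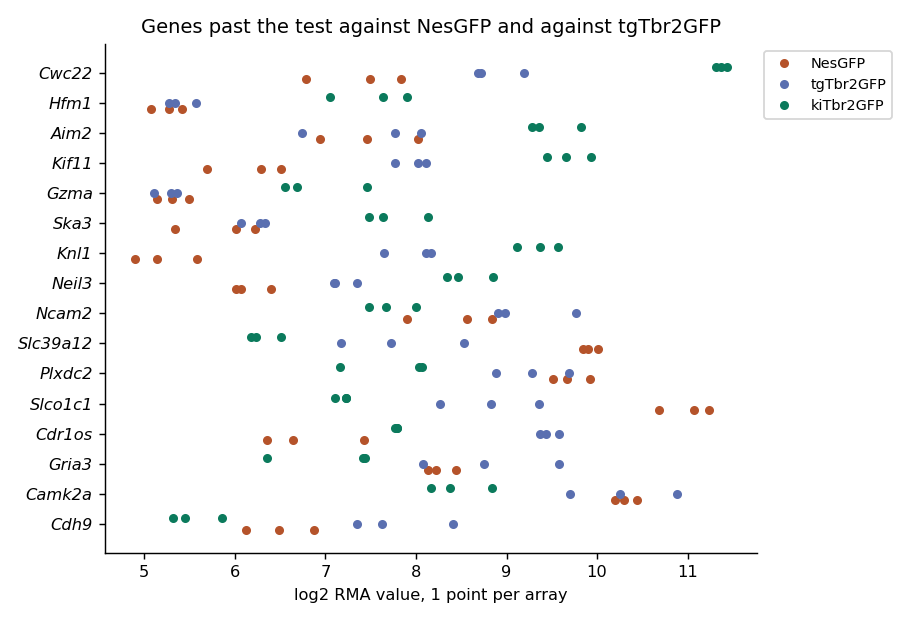
Log2 RMA value (horizontal axis) of 16 genes past the test both against NesGFP and against tgTbr2GFP, with 1 point for each of 3 arrays of kiTbr2GFP, tgTbr2GFP and NesGFP. Cwc22, Hfm1, Aim2, Kif11, Gzma, Ska3, Knl1 and Neil3 are higher in kiTbr2GFP than in tgTbr2GFP, and the other 8 are lower.

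Several list differences from NesGFP were shared by tgTbr2GFP. Its medians against NesGFP were -2.58 for endothelial, -2.45 for myelin, -1.23 for sterol synthesis, 0.60 for lineage and 0.79 for Cajal-Retzius genes. For these lists the median of kiTbr2GFP minus tgTbr2GFP was -0.19, -0.45, -0.05, 0.09 and -0.16, against 0.99 for mitosis. Arrays of tgTbr2GFP correlated with kiTbr2GFP arrays at 0.952 to 0.973 and with NesGFP arrays at 0.786 to 0.839. Genes past both tests numbered 159 (0.962%). Of these 63 were higher in kiTbr2GFP than in both other lines and 84 were lower than in both, while 9 lay above NesGFP and below tgTbr2GFP and 3 the other way round. Beside Cwc22 and the mitotic genes, Hfm1, a meiotic helicase, stood at 7.63, 7.90 and 7.05 in kiTbr2GFP, 5.57, 5.27 and 5.34 in tgTbr2GFP and 5.28, 5.07 and 5.42 in NesGFP. The knock-in arrays lay above all 6 others, which overlapped each other. On those 6 arrays Hfm1 lay below the 25th percentile, so the size of its difference is uncertain. Neil3, a DNA repair enzyme of dividing cells, was higher than in tgTbr2GFP by 1.37, and Ska3, a kinetochore protein, by 1.52. Of the 16 genes plotted for the 3 lines, 7 passed this test under every alternative run, and 9 lost it without at least 1 array, Ska3 and Knl1 among them when kiTbr2GFP replicate 1 was left out.

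On the other side Cdh9, an adhesion molecule of granule neuron synapses, stood at 5.85, 5.31 and 5.45 in kiTbr2GFP, 8.41, 7.35 and 7.63 in tgTbr2GFP and 6.88, 6.48 and 6.12 in NesGFP. It was lower than in tgTbr2GFP by a difference of -2.25 (SE 0.26, limma adjusted p = 0.00553). Its kiTbr2GFP values lay below the 25th percentile of each array, so the size of the difference is uncertain. Camk2a followed at -1.82 (SE 0.26), having stood at 10.88, 9.70 and 10.25 in tgTbr2GFP. Cdr1os stood at 7.77, 7.79 and 7.79 in kiTbr2GFP, between NesGFP (6.64, 6.35 and 7.42) and tgTbr2GFP (9.44, 9.58 and 9.37). Astrocyte genes were lower than in tgTbr2GFP for 7 of 25, with a median of -0.60, and this count was 1 without kiTbr2GFP replicate 1 or 3, 2 without kiTbr2GFP replicate 2, 3 without tgTbr2GFP replicate 1 or 3 and 8 without tgTbr2GFP replicate 2. tgTbr2GFP replicate 1 stood apart from the other arrays of its line in genes of other cell types, with Opalin at 8.70 against 5.57 and 6.19. The mean level of the myelin list ran from 7.32 to 9.05 over the tgTbr2GFP arrays and from 7.26 to 7.95 over the kiTbr2GFP arrays.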

How the data were processed

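Amplified RNA of sorted dentate gyrus cells was measured on 11 arrays, 6 of them in the comparison described here. The deposited values are log2 values that the authors obtained by robust multi-array averaging (RMA); the submitters' processing notes name the oligo package for this. The values were used without further scaling. The genome build behind the probe annotation is not given in the sources used here. Of 28858 probe sets 21789 carried a single gene symbol in GEO's platform annotation, 1621 carried several and 5448 had no entry there. Of the single-symbol sets 21698 matched RefSeq by Entrez number and no symbol changed. Probe sets above the 25th percentile of an array on at least 2 arrays were kept (18097), and each gene was read by its set with the highest mean over all 11 arrays, the rule that 868 genes with several sets needed, leaving 16527 genes.

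The 4 lines were fitted together, each with its own mean, in limma 3.58.1 in R 4.3.3 (lmFit, contrasts.fit, eBayes; 7 residual and 4.22 prior degrees of freedom). Tests were two-sided with Benjamini-Hochberg adjustment over all genes at 0.05, and the scripts were tested on simulated data. Tables were made with pandas 2.3.3 and numpy 2.4.6 under Python 3.11.15, figures with matplotlib 3.10.9. Named genes are the label checks, the 12 largest differences each way among well-annotated genes with no overlap between groups, up to 4 members each way and the best known member of each list, and the 8 largest differences each way between the Tbr2 lines. Mir99ahg, Cdk1 and Plk1 were added after their values were seen. The members and lists were chosen with earlier results of these data known. Promoters, microRNAs and coordinates came from RefSeq (GRCm38.p6). Alternatives were no filter, a 50th percentile filter, the mean of a gene's probe sets, cyclic loess, centring on the array median, a robust prior with an intensity trend, weights per array, a replicate block, only the compared groups, each array left out, and, chosen after seeing the data, protein-coding genes alone.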

Additional observations from a re-analysis of the deposited data

Results flagged for a closer look

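The difference between the Tbr2 reporter lines equals the difference between their comparisons with NesGFP, and the genes below passed the limma test of it at an adjusted p under 0.05. Values are log2 differences, kiTbr2GFP minus tgTbr2GFP, among genes named here. Many come from the gene lists, so they show no theme of their own. Of the 72 genes higher in kiTbr2GFP over the whole array, 20 were in the mitotic list. The genes named here that were higher were Cwc22 2.51, Hfm1 2.14, Aim2 1.97, Kif11 1.71, Gzma 1.65, Ska3 1.52, Knl1 1.38, Neil3 1.37, Kif20b 1.26, Top2a 1.26, Olfr1340 1.19, Cenpe 1.19, Mki67 1.16, Hells 0.82, Lama2 0.79, Rbl1 0.77, Rps27l 0.75 and Wnt5a 0.60.

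The genes lower in kiTbr2GFP included genes known from neurons, namely Cdh9 -2.25, Camk2a -1.82, Gria3 -1.74, Ncam2 -1.50, Gabrb2 -1.35, Slitrk2 -0.71 and Erc2 -0.65. Others known from astrocytes were Slc39a12 -1.50, Gabrb1 -1.29, Clu -1.17, S100b -1.11, Bcan -0.66 and Slc1a3 -0.65. The rest were Cdr1os -1.68, Slco1c1 -1.63, Plxdc2 -1.53, Kif1c -1.18, Htra1 -1.15, Zfp36 -0.90, Cdh11 -0.89, Acadl -0.84 and Tuba4a -0.78. With the replicate block Gria3 (limma adjusted p = 0.108), Slc39a12 (limma adjusted p = 0.0951) and Aim2 (limma adjusted p = 0.0578) did not pass. Gria3 and Slc39a12 also failed under cyclic loess, under median centring and with only the arrays of the compared lines. Without kiTbr2GFP replicate 1 these 3 genes, Knl1, Ska3, Cdr1os, Ncam2, Plxdc2 and Slco1c1 did not pass.

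Probe sets left out of the gene comparison carried differences as well. Of 1198 probe sets with several gene symbols that passed the filter on low values, 43.6% passed the test between kiTbr2GFP and NesGFP, 300 higher and 222 lower. Of 3719 not listed with a gene, 42.2% passed, 1119 higher and 450 lower.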

How the results depend on the processing

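Every alternative kept the count of genes past the test between kiTbr2GFP and NesGFP within 1.5 times of 7472. It ran from 6404, with only the arrays of the compared groups, to 7805 with the replicate block and, as arrays were left out singly, from 6234 to 8111. The higher share of calls was 40.2%, 43.7% under cyclic loess and 33.6% when each array was centred on its median. The median of all genes was -0.13 under the 50th percentile filter.

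The comparison with tgTbr2GFP was less stable. Its 185 genes became 1393 with array weights (561 higher, 832 lower), 264 with only the arrays of the 2 lines (118 higher, 146 lower) and 147 with the replicate block. With single arrays left out they ran from 68 (without kiTbr2GFP replicate 1) to 261 (without NesGFP replicate 3), the higher ones from 30 to 99 and the lower ones from 28 to 162. The cause was not tested. Same-numbered kiTbr2GFP and NesGFP arrays deviated together with correlations of 0.055, 0 and 0.154. With tgTbr2GFP arrays the same-numbered correlations of kiTbr2GFP were 0.122, -0.106 and 0.262. Pairs of kiTbr2GFP arrays with differently numbered arrays of these lines ran from -0.25 to 0.124. The 25th percentile rose with replicate number in kiTbr2GFP, NesGFP and tgTbr2GFP. Whether arrays of the same number share an effect was not tested, and only the replicate block allows for one. Of 360 genes named by rule 343 passed the test against NesGFP, 304 of them under every alternative, and none changed direction.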

Other observations

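Counts for gene families not described above are read against the 18.2% of all genes that were higher and the 27.0% that were lower in kiTbr2GFP than in NesGFP. Kinesins were higher for 16 of 39 (41.0%) and lower for 6, with the mitotic Kif11 (difference 3.52), Kif20b (3.02) and Kif18a (2.02) among the higher and the transport motors Kif1c (-2.38), Kif1a (-1.05) and Kif5a (-0.92) among the lower. Among solute carriers and among histone genes a smaller share was higher, and a larger share was lower, than among all genes. Small nucleolar RNA genes went the other way in both shares. Solute carriers were lower for 101 of 303 (33.3%) and higher for 31, or 20 and 18 without kiTbr2GFP replicate 2 or 3, with Slc17a6 among the higher. Histone genes were lower for 12 of 36 (33.3%) and higher for 2, with a median of -0.30. Small nucleolar RNA genes were higher for 14 of 50 and lower for 10, or 5 without kiTbr2GFP replicate 3.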
